A study of Mus musculus with 28 samples.

Results

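Pou5f1 (the gene of Oct4), Sox2, Klf4 and Myc are the transcription factor genes that, delivered together, turn fibroblasts into induced pluripotent stem (iPS) cells. All probe sets that carried only one of these symbols were followed across every group of mouse cells in both deposited tables. They were 5 of 22626 probe sets in each table and stood for 4 of 11807 named genes on the larger array set and 4 of 12393 on the smaller. Pou5f1, Sox2 and Myc had 1 probe set each and Klf4 had 2, which are described apart. The cells also carried these factors in an inducible transgene, and whether a probe set reads the transgene as well as the endogenous gene was not tested, since probe sequences were not used here.

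The fibroblasts came from embryos of day 13.5 of a mouse line with an OKSM cassette and a Rosa26-M2rtTA allele, in 1 copy or 2 copies of each. The labels do not say which arrays came from which genotype. M2rtTA is a transactivator that switches the cassette on when doxycycline is present, and reprogramming ran in medium for embryonic stem cells with LIF and doxycycline. All 24 arrays of the larger table were labelled C57BL6/129. They comprised uninduced mouse embryonic fibroblasts titled KH2-MEF (MEFs, 2 arrays, M2 and M3, day 0, Thy1+), sorted cells of days 3, 6, 9 and 12 of induction, and iPS cells titled KH2-SC_MEF (3 arrays, 1-3, 1-5 and 1-6, SSEA1+ and GFP+). Cells were sorted each day into Thy1+, SSEA1+ (without Thy1) and double-negative cells (here Thy1-), all GFP-negative. These fractions had 2 arrays each (M2 and M3) on days 3 and 6 and 1 array each (M2) on days 9 and 12. SSEA1+ cells with GFP signal were sorted on day 12 (1 array); the gene that GFP reports on is not named in the labels. The smaller table held 4 arrays of day 6 SSEA1+ cells, 2 negative and 2 positive for the epithelial surface protein EpCAM, with no strain given. Whether the iPS cultures still received doxycycline is not stated.

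Oct4 is a POU-domain protein that binds DNA together with the HMG-box protein Sox2 at composite sites, and the pair keeps its own genes and those of Nanog and Fgf4 active in pluripotent cells. Klf4 is a zinc finger protein of the Krüppel-like family that binds GC-rich sites and is also made in fibroblasts, where it is known for roles in growth arrest. Myc is a basic helix-loop-helix protein that binds E-boxes with its partner Max and is known for driving genes of ribosome production, nucleotide synthesis and growth. Embryonic fibroblasts normally keep Pou5f1 and Sox2 silent.

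Sequence upstream of the start was taken from RefSeq (GRCm38.p6) for the 3 genes with an entry, Pou5f1, Sox2 and Klf4, because the Pou5f1 and Sox2 probe sets moved together while those of Klf4 did not follow them. Each line gives the 250 bases before the transcription start, 5′ to 3′ on the strand of the gene, for Pou5f1 from chr17:35505782-35506031 on the plus strand, for Sox2 from chr3:34649745-34649994 on the plus strand and for Klf4 from chr4:55532476-55532725 on the minus strand. Capitals mark matches on either strand to an octamer core (ATGCAAA), a SOX core (ACAAAG), a GC box (GGGCGG), an E-box (CACGTG) or a nuclear receptor half-site (AGGTCA).
Pou5f1: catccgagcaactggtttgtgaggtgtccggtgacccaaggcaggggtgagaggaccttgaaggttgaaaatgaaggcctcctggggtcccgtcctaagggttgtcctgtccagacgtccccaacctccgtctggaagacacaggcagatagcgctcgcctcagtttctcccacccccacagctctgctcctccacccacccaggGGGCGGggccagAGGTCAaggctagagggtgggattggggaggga
Sox2: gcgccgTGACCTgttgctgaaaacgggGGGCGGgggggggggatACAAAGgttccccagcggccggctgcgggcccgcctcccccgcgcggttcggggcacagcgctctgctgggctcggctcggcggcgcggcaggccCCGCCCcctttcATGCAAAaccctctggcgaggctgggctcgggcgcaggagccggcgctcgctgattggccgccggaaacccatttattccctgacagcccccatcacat
Klf4: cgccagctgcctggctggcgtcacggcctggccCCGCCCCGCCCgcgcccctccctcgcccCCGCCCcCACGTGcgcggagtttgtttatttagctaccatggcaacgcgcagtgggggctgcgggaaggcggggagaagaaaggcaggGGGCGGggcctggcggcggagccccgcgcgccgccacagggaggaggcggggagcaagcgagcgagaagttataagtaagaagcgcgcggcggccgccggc
The Sox2 window held 1 octamer core, whose first base lay 99 bases before the start, and 1 SOX core at 206 bases, with 2 GC boxes and 1 half-site. The Pou5f1 window held 1 GC box at 45 bases and 1 half-site at 33 bases. The Klf4 window held 4 GC boxes, of which the 2 farthest from the start share a base, and 1 E-box at 182 bases. Of 32851 windows of this length, 4.12% held the octamer core, 16.5% the SOX core, 32.7% the GC box, 6.02% the E-box and 14.0% the half-site, so all 5 motifs also occur in many windows of other genes. The share of G and C was 62.0% in Pou5f1, 72.0% in Sox2 and 74.0% in Klf4 against a median of 52.4% of all windows. The table holds another Pou5f1 start, with its window at chr17:35508557-35508806, which had 45.6% G and C and 0 matches to the 5 motifs. A match is a description of the letters and does not show that a factor binds there.

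The values are log2 signals per probe set, normalized by the robust multi-array average (RMA). Nothing in the labels ties replicate arrays to separate cultures or embryos. The p-values therefore reflect array-to-array spread alone, which may be technical, and the number of arrays limits the precision. Array medians lay between 6.84 and 6.99 in the larger table and between 6.55 and 6.58 in the smaller. The mean over 13 of 16 fibroblast markers was 11.59 and 11.62 on the MEF arrays and 6.35 to 7.16 on the iPS arrays, and that over 11 of 12 pluripotent cell markers was 4.56 and 4.58 against 11.06 to 11.27, so both labels fitted their markers. Means over 11 macrophage markers (4.34 to 4.79) and 8 endothelial markers (5.00 to 5.73) stayed low on all 24 arrays. The day 6 Thy1+ M2 array stood apart in RNA quality, with a 3′ minus 5′ signal difference of 1.78 for Gapdh against 0.58 to 1.11 on the other 23. Since RNA came from bulk fractions, fewer cells of a type and less RNA per cell cannot be told apart.

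Pou5f1 (probe set 1417945_at) was low in fibroblasts and in all early fractions. Its log2 signal was 5.36 and 5.07 on the MEF arrays, and on the 12 sorted arrays of days 3 and 6 it lay between 4.88 and 6.01. On day 9 it was 5.48 in Thy1+, 5.53 in Thy1- and 6.85 in SSEA1+ cells. Day 12 was the first day on which every fraction lay above the MEF arrays and all arrays of days 3 and 6. There the signal was 6.27 in Thy1+, 7.26 in Thy1-, 8.86 in SSEA1+ and 10.89 in GFP+ cells, against 11.77, 11.89 and 11.91 in iPS cells. Among the 15 groups ordered by level, neighbours among the lowest 9 differed by less than the pooled SD of 0.23, and all 6 higher steps exceeded it.

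Sox2 (1416967_at) stayed near its MEF level on most arrays until day 9. The MEF arrays read 3.05 and 2.98, and the 5 Thy1+ arrays of days 3 to 9 lay between 2.93 and 3.25. The day 3 SSEA1+ arrays differed from each other, with 4.96 on M2 and 3.14 on M3, the widest gap between replicates of any member. On the M2 array the mean of the pluripotent cell markers was also higher, at 5.95 against 5.22 on M3, and its part in the Sox2 signal was not tested. The day 6 Thy1- arrays showed a smaller gap of the same kind, with Sox2 at 3.16 on M2 and 3.995 on M3. By day 9 the 3 fractions stood at 3.25, 3.87 and 3.88 in the order Thy1+, Thy1- and SSEA1+. Day 12 gave 4.46 in Thy1+, 8.07 in Thy1-, 8.95 in SSEA1+ and 10.99 in GFP+ cells, and the iPS arrays read 10.66, 11.48 and 11.29. The day 12 GFP+ array thus lay within the range of the iPS arrays, and the lowest 11 groups differed from their neighbours by less than the pooled SD of 0.51.

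Both Klf4 probe sets gave high signals in fibroblasts, fell at day 3 and recovered to different degrees in the fractions. Probe set 1417394_at read 10.61 and 10.62 in MEFs and 8.51 to 9.28 on the 6 arrays of day 3. On day 6 it was 10.55 and 10.88 in Thy1+, 10.41 and 10.29 in Thy1- and 9.78 and 9.56 in SSEA1+ cells. From day 6 on, the Thy1+ arrays stayed near the MEF level, with 10.34 on day 9 and 10.62 on day 12. The Thy1- arrays read 9.21 and 9.43 on those days, the SSEA1+ arrays 8.23 and 8.49, and the GFP+ array 9.84. The iPS arrays were highest, at 11.31, 11.50 and 11.66, and did not overlap any other group. Arrays were apart for 71% of all probe sets between iPS cells and MEFs and for 71.2% between iPS and GFP+ cells.

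Probe set 1417395_at of Klf4 gave the fractions the same order by mean within each day. The order over all 15 groups differed, with day 9 SSEA1+ cells lowest on 1417394_at and day 3 SSEA1+ cells lowest on 1417395_at. Probe set 1417395_at read 10.996 and 10.87 in MEFs and 9.19 to 9.82 on day 3. In day 6 Thy1+ cells it read 11.66 and 11.17, where the higher value is that of the M2 array with the raised Gapdh difference. Day 6 Thy1- cells gave 10.80 and 10.65, and day 6 SSEA1+ cells 10.01 and 10.00. The day 9 values were 10.84, 9.93 and 9.40 and the day 12 values 11.07, 10.50 and 9.73 in Thy1+, Thy1- and SSEA1+ cells. On each of these days the signal was highest in Thy1+ and lowest in SSEA1+ cells. The GFP+ array read 10.65 and the iPS arrays 11.44, 11.29 and 11.58, which overlapped the day 6 Thy1+ arrays. The pooled SD was 0.18 for 1417394_at and 0.17 for 1417395_at, and 8 and 4 of the 14 steps between neighbouring groups exceeded it.

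Myc (1424942_a_at) showed the reverse picture. It was intermediate in MEFs at 7.35 and 7.15, high on all 18 arrays of the sorted fractions (9.07 to 9.96) and lowest in iPS cells at 5.62, 5.13 and 5.33. No sorted array overlapped either end point, and the share of all probe sets of which this holds was not computed. For day 3 alone, 67.4% to 73.7% of all probe sets were apart between a fraction and MEFs. Between iPS cells and the 3 day 3 fractions together 51.3% were apart. The day 12 GFP+ array, at 8.21, lay between the other induced fractions and the MEFs. Within the 12 sorted groups of days 3 to 12 neighbours in the order of levels never differed by more than the pooled SD of 0.21. The highest single value, 9.96, was again on the day 6 Thy1+ M2 array, against 9.29 on M3.

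**Figure D1:**
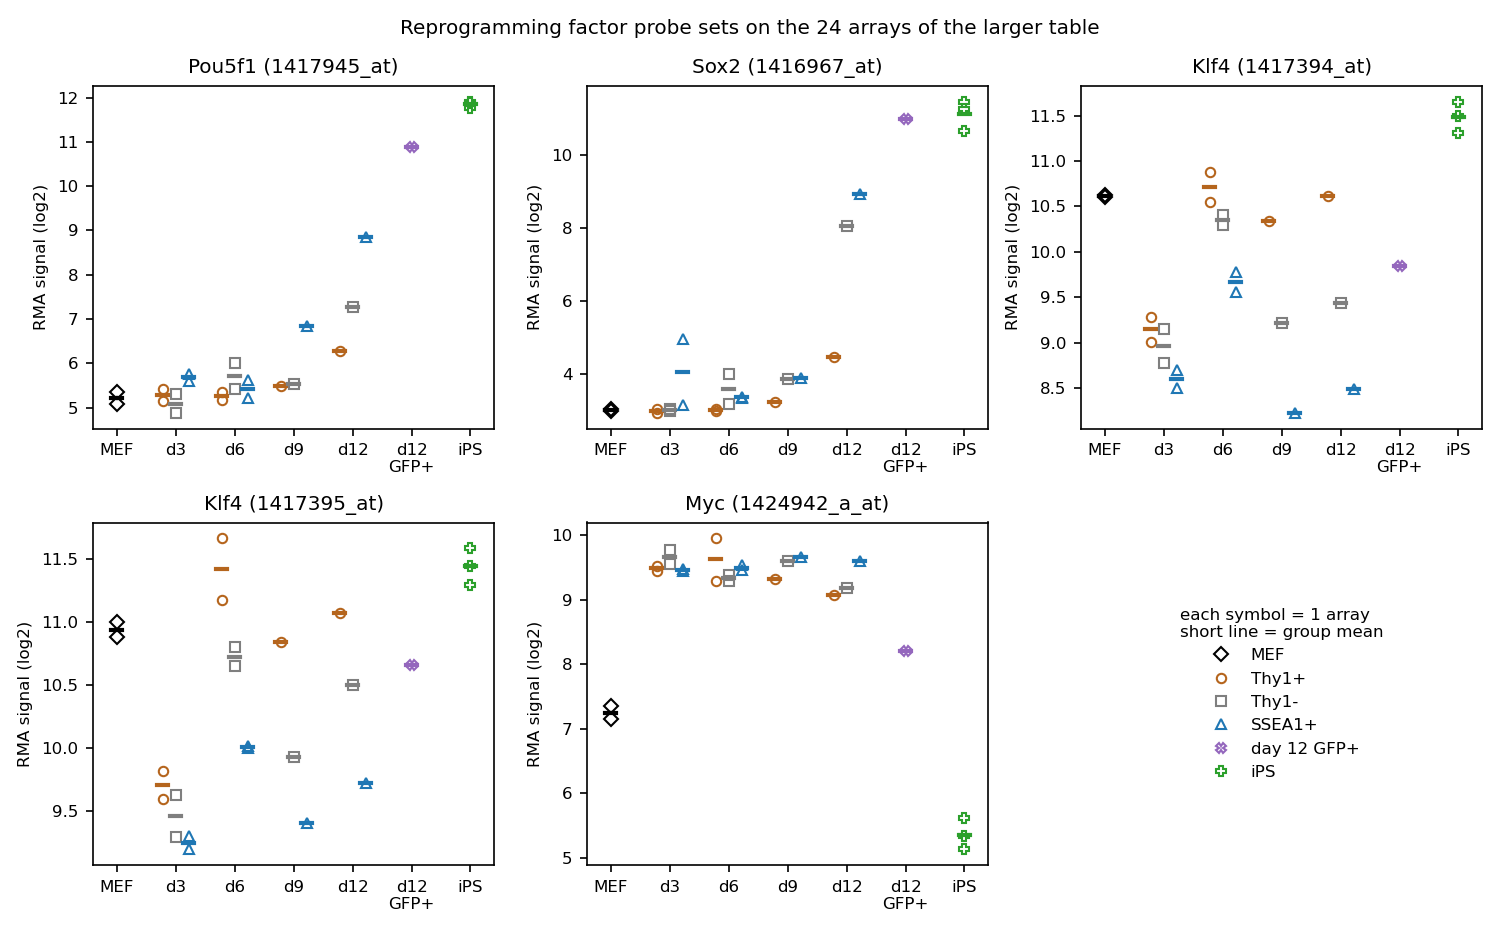
RMA log2 signal of the 5 probe sets in the larger table (vertical axis of each panel) by day and fraction (horizontal axis), each symbol 1 array and each short line a group mean. On days 3 and 6 Pou5f1 lies between 4.88 and 6.01 and Sox2 between 2.93 and 4.96, and they reach 10.89 and 10.99 in day 12 GFP+ cells, Klf4 dips on day 3, and Myc is high on all sorted arrays.

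The end points were compared first, iPS cells against MEFs. Differences were tested with limma, and a call needed a difference of at least 2-fold and p under 0.05 after Benjamini-Hochberg adjustment for all probe sets of the table. Pou5f1 was higher in iPS cells by 6.64 on the log2 scale (SE 0.19, adjusted p = 5.24e-12), a 99.7-fold difference in signal. The MEF signal of Pou5f1 lay above 31.1% of probe sets and was not tested against background, so this fold may not be that of the RNA. Sox2 was higher by 8.12 (SE 0.39, adjusted p = 5.43e-10). Its MEF signal lay above only 1.45% of probe sets, and no detection call was used here, so whether it exceeded background was not tested and no fold is given for Sox2. Myc was lower, at −1.89 (SE 0.18, adjusted p = 5.81e-07), 3.71-fold. Klf4 stood 0.87 higher on 1417394_at (SE 0.16, adjusted p = 0.000303) and 0.50 higher on 1417395_at (SE 0.16, adjusted p = 0.0147), both under the 2-fold limit. So 3 of 5 probe sets were called, against 29.3% of all probe sets.

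The partners and relatives of the factors changed unevenly between these end points. The gene lists were written from general knowledge, though with earlier results of these data known. Each gene has 1 probe set, that of highest mean signal. The lists share genes, so their counts are not independent. Nanog, Zfp42, Dppa4, Tdgf1 and Sall4 were listed as both partners and targets, and Klf2 and Klf5 as both partners and relatives. Of 11807 genes, 1823 were higher and 1807 lower in iPS cells. Of 22 measured pluripotency partners 20 were higher and 0 lower (median log2 difference 5.36 against 0.01 over all genes), led by Dppa5a at 7.81, Sall4 at 7.53 and Zfp42 at 7.52. All 9 measured targets of the Oct4 and Sox2 pair were higher, with the growth factor gene Fgf4 at 8.05 and the F-box gene Fbxo15 at 6.97. Among 33 relatives of the 4 factors in the POU, SOX, KLF and MYC families, 8 were higher and 4 lower, with Klf5 at 3.13, Sox15 at 2.68, Sox4 at −2.25 and Sox9, a chondrocyte regulator, at −3.54.

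While Myc was lower in iPS cells, about as many of its listed targets were called higher as were not. Of 30 measured Myc target genes, 16 were higher in iPS cells and 1 lower, with a median difference of 1.19. Among those higher were the transferrin receptor gene Tfrc at 2.80 and the purine synthesis gene Ppat at 2.64. The 1 lower gene was the cyclin gene Ccnd2 at −3.62. Of 9 genes of the Myc network, Mxd4, which encodes an antagonist that pairs with Max, was lower, at −3.35, and Mga was higher by 1.60.

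Day 3 of induction was then compared with MEFs, fraction by fraction. The 3 comparisons share the MEF arrays. Myc rose in each, by 2.23 in Thy1+ (SE 0.20, adjusted p = 1.67e-06), 2.41 in Thy1- (SE 0.20, adjusted p = 6.76e-07) and 2.20 in SSEA1+ cells (SE 0.20, adjusted p = 1.04e-06), or 4.71-, 5.30- and 4.61-fold. Klf4 fell in each, with differences of −1.47, −1.66 and −2.02 on 1417394_at and −1.23, −1.48 and −1.69 on 1417395_at, in the same order, with adjusted p-values between 7.01e-07 and 0.00012. No array of day 3 overlapped a MEF array for Myc or Klf4, as held for 67.4%, 72.2% and 73.7% of all probe sets in the 3 comparisons. The members called were 3 of 5 in every fraction, against 9.41% of all probe sets in Thy1+, 10.9% in Thy1- and 14.9% in SSEA1+ cells.

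Pou5f1 and Sox2 did not pass in any day 3 fraction. In Thy1+ and Thy1- cells their differences from MEFs lay between −0.13 and 0.08, with adjusted p-values of 0.743 or more. In SSEA1+ cells Pou5f1 differed by 0.47 (SE 0.21, adjusted p = 0.112) and Sox2 by 1.03 (SE 0.43, adjusted p = 0.086). The Sox2 value rests on the M2 array. Without M3 it was 1.94 and was called (adjusted p = 0.000698), without M2 it was 0.13, and over the 13 alternatives its adjusted p ranged from 0.000698 to 0.85.

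**Figure D2:**
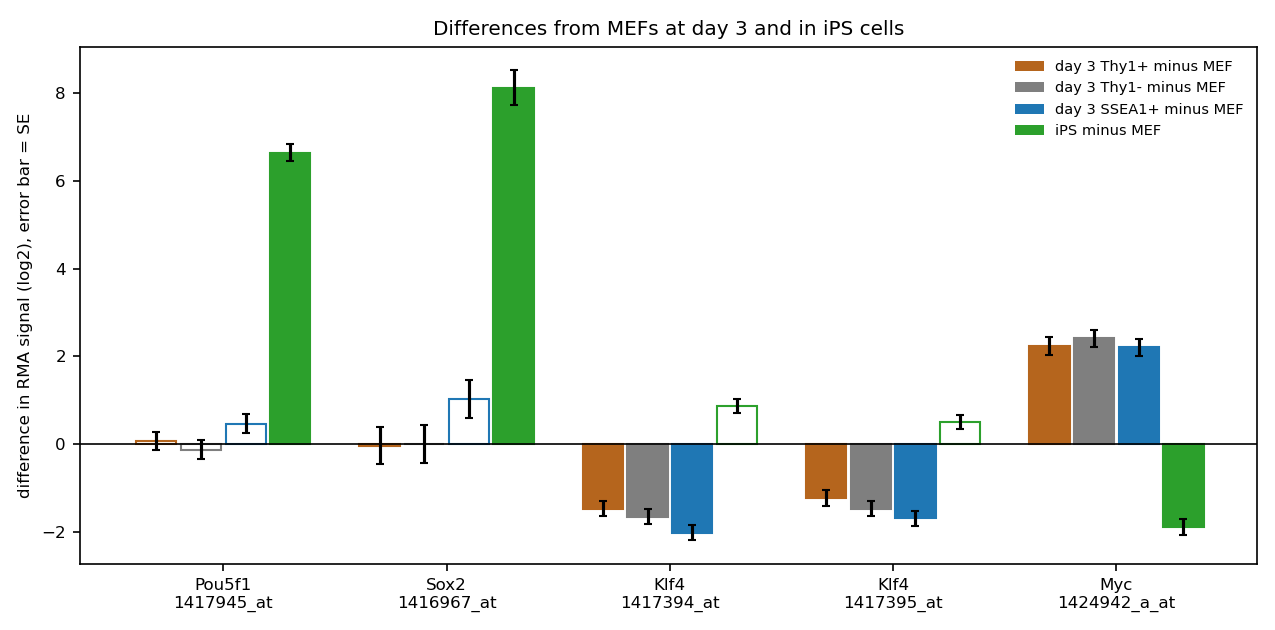
Difference in RMA log2 signal from MEFs (vertical axis, error bars are SE) for each probe set on day 3 in 3 fractions and in iPS cells, with filled bars for called differences and open bars for the rest. At day 3 Myc is higher by 2.20 to 2.41 and Klf4 lower, while Pou5f1 and Sox2 are called only in iPS cells.

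Some targets of the Oct4 and Sox2 pair were already higher at day 3 although the probe sets of the pair themselves were not called. Fgf4 read 4.27 and 4.69 in MEFs and 9.68 to 10.49 on the 6 arrays of day 3. Its difference from MEFs was 5.22 in Thy1+, 5.46 in Thy1- and 5.97 in SSEA1+ cells (SE 0.24, adjusted p = 3.23e-09, 1.91e-09 and 6.32e-10). Fbxo15 was higher by 3.37, 3.35 and 3.67 in the same order. They were the 2 called members of 9 in Thy1+ and in Thy1- cells, and Sall4, higher by 1.64, made 3 in SSEA1+ cells. Over all genes 622, 675 and 864 were higher and 640, 770 and 1039 lower.

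Of the other family members at day 3, Klf2 moved most. This close relative of Klf4 read 10.34 and 10.08 in MEFs and 5.91 to 6.66 on day 3, a difference of −4.04 in Thy1+, −3.88 in Thy1- and −3.93 in SSEA1+ cells (SE 0.27, adjusted p = 1.09e-07, 1.40e-07 and 8.21e-08). Its direction was that of Klf4. Sox4 and Sox9 also fell in all 3 fractions, with differences of −1.52 to −2.40 and −1.57 to −2.19. Pou6f1 rose by 1.32 to 1.46. In all, 1, 2 and 2 of 33 relatives were higher and 3 lower in each fraction. Among 22 pluripotency partners 0, 1 and 2 were higher and 1, Klf2, was lower in each.

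Some of the Myc targets were higher at day 3 as well. Of 30 measured, 10 were higher in Thy1+, 12 in Thy1- and 15 in SSEA1+ cells, and 0 were lower in any, with median differences of 0.70, 0.78 and 1.02 against 0.01, 0.03 and 0.05 over all genes. Shmt1, a one-carbon enzyme gene, was higher by 1.80, 2.11 and 2.75 (SE 0.14). Tfrc followed at 1.45, 1.84 and 2.32 and the nucleolar gene Nop56 at 1.38, 1.45 and 1.82.

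In iPS cells set against the mean of the 3 day 3 fractions, all 5 probe sets were called, against 20.3% of all. Myc was lower, at −4.17 (SE 0.14, adjusted p = 1.22e-11), 18-fold. Klf4 was higher by 2.58 on 1417394_at (SE 0.12, adjusted p = 4.15e-10) and by 1.97 on 1417395_at (SE 0.12, adjusted p = 7.10e-09). Pou5f1 was higher by 6.50 and Sox2 by 7.79. Of the 30 Myc targets 3 were higher and 1 lower here, and of 11807 genes 1256 were higher and 1320 lower. The Myc paralog gene Mycn was higher by 2.05 in iPS cells (SE 0.16, adjusted p = 8.67e-08). Klf2 was higher by 4.54 and Klf5 by 3.01.

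The steps within the SSEA1+ fraction were followed next. From day 3 to day 6 only Klf4 1417394_at was called, higher by 1.07 (SE 0.17, adjusted p = 0.00332), which made 1 of 5 against 1.56% of all probe sets. The other Klf4 probe set differed by 0.76 (SE 0.17, adjusted p = 0.0279), under 2-fold. Myc differed by 0.04, Pou5f1 by −0.27 and Sox2 by −0.69. The Klf4 difference was 0.97 without the day 3 SSEA1+ M3 array and 0.96 without the day 6 SSEA1+ M2 array, under the 2-fold limit in both. Without the day 3 M3 array Sox2 fell by 1.59 and was called, and without M2 its difference was 0.22.

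From day 6 to day 9 in SSEA1+ cells Pou5f1 rose by 1.43 (SE 0.26, adjusted p = 0.0221) and Klf4 1417394_at fell by 1.44 (SE 0.21, adjusted p = 0.00682). These were 2 of 5, against 0.411% of all probe sets. Klf4 1417395_at differed by −0.60 (SE 0.21, adjusted p = 0.319) and Sox2 by 0.51 (SE 0.53, adjusted p = 0.852). Both calls were lost without the day 6 SSEA1+ M2 array, at 1.23 for Pou5f1 and −1.33 for Klf4. Nanog rose by 2.86 and the nuclear receptor gene Nr0b1 by 2.31 in the same step. Days 9 and 12 have a single array per fraction, whose error was borrowed from groups with replicates.

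From day 9 to day 12 Sox2 rose by 5.07 (SE 0.61, adjusted p = 0.00111), with 1 array on each side. Pou5f1 rose by 2.01 (SE 0.30, adjusted p = 0.00507), 4.02-fold. Klf4 differed by 0.27 and 0.32 and Myc by −0.06, so that 2 of 5 were called against 0.407% of all probe sets. In the same step 7 of 22 pluripotency partners rose and 0 fell, among them Dppa5a by 5.46, Dppa2 by 4.95 and Lin28a by 4.85. Of 11807 genes 57 rose and 5 fell.

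The whole interval from day 3 to day 12 was compared in each fraction. In SSEA1+ cells Pou5f1 rose by 3.17 (SE 0.26, adjusted p = 2.71e-06). Sox2 rose there by 4.90 (SE 0.53, adjusted p = 3.63e-05), which made 2 of 5 against 5.48% of all probe sets. Klf4 differed by −0.11 and 0.48 and Myc by 0.14, none of them called. In Thy1- cells Pou5f1 rose by 2.17 (SE 0.26, adjusted p = 8.34e-05). The Sox2 signal of this fraction rose by 5.05 (SE 0.53, adjusted p = 2.71e-05) and that of Klf4 1417395_at by 1.04 (SE 0.21, adjusted p = 0.00614), 3 of 5 against 5.89%. That Klf4 value was 0.87 without the day 3 Thy1- M2 array and 0.99 after median scaling, under 2-fold in both.

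The Thy1- fraction of day 12 was labelled negative for SSEA1, yet its Sox2 and Pou5f1 signals exceeded those of every array of days 3 to 9. On that array the mean of the pluripotent cell markers was 7.27, against 5.71 on the day 9 Thy1- array and 8.78 in day 12 SSEA1+ cells. Sall4 rose by 6.11 and Lin28a by 4.90 from day 3 in this fraction. The fibroblast marker mean was 9.40, against 7.60 in SSEA1+ cells. The part of these markers in the Sox2 and Pou5f1 signals was not tested.

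In Thy1+ cells the members that changed from day 3 to day 12 were the Klf4 probe sets. On 1417394_at the rise was 1.47 (SE 0.21, adjusted p = 0.000281). On 1417395_at it was 1.36 (SE 0.21, adjusted p = 0.000498), so 2 of 5 were called against 8.96% of all probe sets. Pou5f1 differed by 0.98 (SE 0.26, adjusted p = 0.0167), just under 2-fold, and Sox2 by 1.47 (SE 0.53, adjusted p = 0.0711). Pou5f1 passed after median scaling, at 1.02, and without the day 3 Thy1+ M2 array, at 1.11. Sox2 passed with only these groups in the fit.

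**Figure D3:**
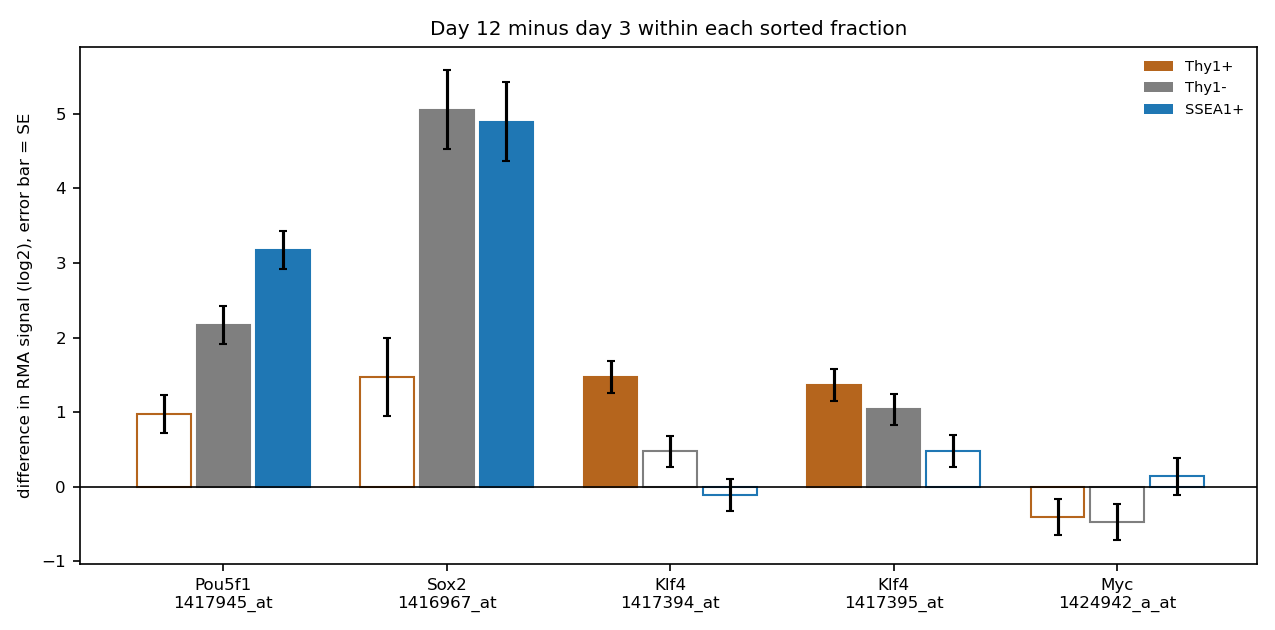
Day 12 minus day 3 difference in RMA log2 signal (vertical axis, error bars are SE) of each probe set within the Thy1+, Thy1- and SSEA1+ fractions, with filled bars for called differences. Sox2 rises by 5.05 in Thy1- and 4.90 in SSEA1+ cells, and Klf4 1417394_at rises by 1.47 in Thy1+ cells only as a called change.

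The changes of the SSEA1+ and Thy1+ fractions were compared directly in the same fit. The Pou5f1 change was larger in SSEA1+ cells by 2.19 (SE 0.36, adjusted p = 0.00142) and the Sox2 change by 3.42 (SE 0.74, adjusted p = 0.00925). The Klf4 1417394_at change was smaller, with a difference of −1.58 (SE 0.30, adjusted p = 0.00408). Klf4 1417395_at differed by −0.88 (SE 0.30, adjusted p = 0.0886) and Myc by 0.55 (SE 0.34, adjusted p = 0.434). Thus 3 of 5 were called, against 8.23% of all probe sets.

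Part of the Myc target list fell in Thy1+ cells in this interval. There 990 of 22626 probe sets rose and 1038 fell. Of the 30 targets 13 fell and 0 rose, with a median of −0.75 against 0.07 over all genes. Myc itself differed by −0.41 (SE 0.24, adjusted p = 0.288). Among the targets that fell were the chromatin factor gene Rcc1 at −1.81 (SE 0.25), the pyrimidine synthesis gene Cad at −1.73 (SE 0.18) and Nme1 at −1.31. In SSEA1+ and in Thy1- cells limma called 0 of 30, with 1 and 7 at an unadjusted p under 0.05. Over all genes 2537 of 11807 had such a p in SSEA1+ cells, and the count for Thy1- cells is not given here. Of all probe sets 5.48% were called in SSEA1+ and 5.89% in Thy1- cells. The change was more positive in SSEA1+ than in Thy1+ cells for 10 of 30 targets and more negative for 0. Of 22626 probe sets it was more positive for 933 and more negative for 929. The family member Mycl fell by 1.86 in Thy1+ cells.

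**Figure D4:**
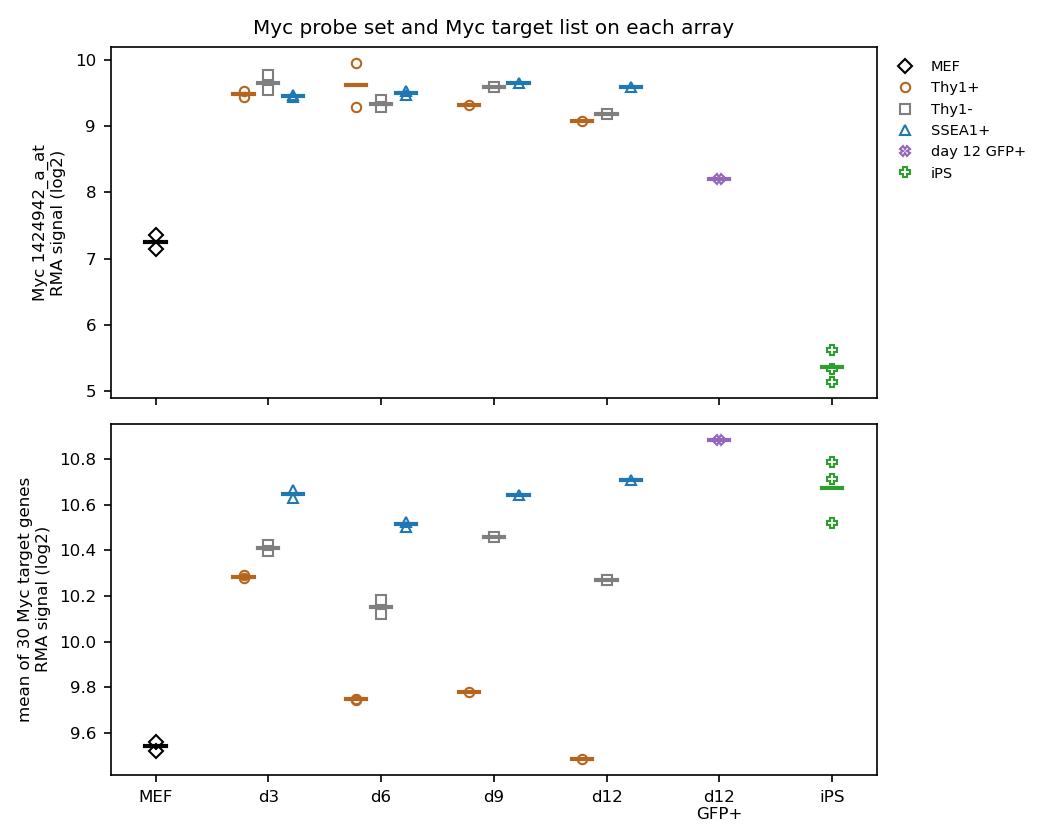
RMA log2 signal of the Myc probe set (upper panel) and mean RMA log2 signal of the 30 measured Myc target genes (lower panel) on each of the 24 arrays, by day and fraction, with short lines for group means. The Myc signal of the sorted fractions stays between 9.07 and 9.96, while the target mean of Thy1+ cells goes from 10.29 on day 3 to 9.48 on day 12 and that of iPS cells is 10.67 with Myc at its lowest.

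Per array, the mean of the 30 targets was 9.52 and 9.56 on the MEF arrays, 10.28 and 10.29 in day 3 Thy1+ cells, 9.74 and 9.75 in day 6 Thy1+ cells and 9.48 in day 12 Thy1+ cells, below both MEF arrays. In SSEA1+ cells it stayed between 10.50 and 10.71 on all 4 days. On iPS arrays it was 10.52 to 10.79, above every Thy1+ array, with the lowest Myc signals of the table. The fibroblast marker mean moved the other way, from 9.61 on day 3 to 10.69 on day 12 in Thy1+ cells, and its part was not tested.

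Day 12 cells that had switched on the GFP reporter were compared with the other SSEA1+ cells of that day, 1 array each. Pou5f1 was higher by 2.04 (SE 0.30, adjusted p = 0.000549) and Klf4 1417394_at by 1.35 (SE 0.25, adjusted p = 0.00308), and Myc was lower, at −1.39 (SE 0.28, adjusted p = 0.00637). These were 3 of 5, against 5.93% of all probe sets. Sox2 stood 2.04 higher (SE 0.61, adjusted p = 0.0567), as large a difference as that of Pou5f1 but with a wider error. It was called without the day 6 Thy1+ M2 array in the fit (adjusted p = 0.0383, against 0.0383 to 0.0689 over its 8 alternatives). Klf4 1417395_at stood 0.93 higher (SE 0.24, adjusted p = 0.0311), and passed the fold limit after median scaling, at 1.002. Of the pluripotency partners 11 of 22 were higher and 0 lower, with Dppa3 at 3.09 and Esrrb at 3.03. Of 22626 probe sets 470 were higher and 871 lower. Of the Myc targets 0 were higher and 1, Ccnd2, was lower, at −2.16, and Mxd4 stood at −1.74.

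Between iPS cells and the GFP+ array Myc was lower in iPS cells, at −2.85 (SE 0.23, adjusted p = 3.32e-06), 7.19-fold, and Klf4 1417394_at was higher by 1.64 (SE 0.20, adjusted p = 8.93e-05). These were 2 of 5 members, against 8.05% of all probe sets. Sox2 differed by 0.15 (SE 0.50, adjusted p = 0.873) and Pou5f1 by 0.96 (SE 0.24, adjusted p = 0.0131), just under 2-fold. Klf4 1417395_at differed by 0.78 (SE 0.20, adjusted p = 0.0144). The Klf relatives Klf5 and Klf2 were higher in iPS cells by 2.06 and 1.60.

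Thy1+ cells of day 12 were set against the uninduced MEFs. Myc was higher by 1.82 (SE 0.24, adjusted p = 0.000128) and Pou5f1 by 1.06 (SE 0.26, adjusted p = 0.0115), 2 of 5 against 8.64% of all probe sets. The Pou5f1 value was 0.91 without the MEF M3 array and 0.97 after quantile normalization, and was called in neither. The Klf4 probe sets did not pass, with differences of −0.00013 and 0.13 (SE 0.21 each), and Sox2 stood 1.44 higher (SE 0.53, adjusted p = 0.0828). Fgf4 was still higher by 5.64 and Klf2 still lower, at −2.38. Myc targets were 2 higher and 2 lower of 30, and of 22626 probe sets 911 were higher and 1043 lower.

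Over all 4 days, with day as a term in a fit of the 18 sorted arrays, SSEA1+ cells had more Sox2 and less Klf4 signal than Thy1+ cells. Klf4 was lower, at −1.24 on 1417394_at (SE 0.19, adjusted p = 0.000117) and −1.09 on 1417395_at (SE 0.14, adjusted p = 4.07e-05), with all SSEA1+ arrays under all Thy1+ arrays on each of the 4 days. Sox2 was higher by 1.33 (SE 0.46, adjusted p = 0.0329), and its arrays were also apart on 4 of 4 days, though narrowly before day 12. On day 3 the lower SSEA1+ array read 3.14 and the higher Thy1+ array 3.03. Day 6 signals lay above only 5.29% of probe sets in SSEA1+ and 1.18% in Thy1+ cells. Day 12 gave 8.95 in SSEA1+ against 4.46 in Thy1+ cells, 1 array each. Pou5f1 stood 0.84 higher (SE 0.27, adjusted p = 0.0231), apart on 3 days, and Myc differed by 0.09 (SE 0.12, adjusted p = 0.628). On days 9 and 12 each fraction had 1 array, so the arrays could not overlap and only their order is given. The share of all probe sets apart by day was not computed, so these counts of days are descriptions. These were 3 of 5, against 7.50% of all probe sets.

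The Klf4 order held within every day, whereas the Sox2 call was lost in several fits. It was lost with only these groups in the fit (adjusted p = 0.0801, against 0.0232 to 0.113 over its 21 alternatives). Its difference was 1.09 without the day 3 SSEA1+ M2 array, 0.74 without the day 12 Thy1+ array and 0.97 without the day 12 SSEA1+ array, called in none of them. Klf4 1417395_at was −0.99, under 2-fold, without the day 6 Thy1+ M2 array. Fibroblast markers moved with Klf4 here, with list means of 9.56 to 10.69 on the Thy1+ and 7.60 to 8.79 on the SSEA1+ arrays, and their part was not tested. Of the Myc targets 5 of 30 were higher in SSEA1+ cells and 0 lower, with Tfrc at 1.58 and Rcc1 at 1.57, while Myc itself was not called. Of 22626 probe sets 716 were higher and 982 lower.

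Averaged over all days, the Thy1- fraction lay between the other fractions, but by day only the Klf4 probe sets kept that order throughout. On day 3 mean Pou5f1 was 5.09 in Thy1-, 5.29 in Thy1+ and 5.68 in SSEA1+ cells. On day 6 it was 5.72, 5.26 and 5.42 in the same order. Against Thy1- cells, SSEA1+ cells had Klf4 differences of −0.67 (SE 0.19, adjusted p = 0.0548) and −0.52 (SE 0.14, adjusted p = 0.049), Pou5f1 of 0.58, Sox2 of 0.42 and Myc of 0.06. Here limma called 0 of 5 members, against 0.756% of all probe sets called. Of the 5, 3 had an unadjusted p under 0.05, and the share of all probe sets at that p is not given here. Between Thy1- and Thy1+ cells limma again called 0 of 5, against 1.60% of all probe sets called. Of the 5, 2 had an unadjusted p under 0.05, again without the share of all probe sets at that p. There Klf4 1417394_at differed by −0.57 (SE 0.19, adjusted p = 0.0648), 1417395_at by −0.56 (SE 0.14, adjusted p = 0.0262) and Sox2 by 0.90 (SE 0.46, adjusted p = 0.228).

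On the smaller table, the EpCAM comparison within day 6 SSEA1+ cells asked whether cells that had gained an epithelial surface protein differed in the factors. Sox2 read 3.67 and 3.72 in EpCAM- cells and 5.78 and 6.41 in EpCAM+ cells. It was higher by 2.40 (SE 0.20, adjusted p = 0.0162), again with no detection call for the low EpCAM- signal. It was the 1 member of 5 called, against 0.579% of all probe sets, and leaving out any 1 of the 4 arrays ended the call (differences of 2.09 to 2.71, adjusted p between 0.12 and 0.266, against 0.003 to 0.266 over all 11 alternatives).

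The other members did not pass in that comparison. The arrays of the 2 groups were apart for all 5 members, on Klf4 1417395_at by less than the rounding, as they were for 49.1% of all probe sets. Pou5f1 read 5.62 and 6.01 in EpCAM- and 6.66 and 6.91 in EpCAM+ cells, a difference of 0.98 (SE 0.16, adjusted p = 0.0618). Klf4 read 7.10 and 7.39 against 6.61 and 6.92 on 1417394_at (−0.48, adjusted p = 0.191) and 6.82 and 7.15 against 6.50 and 6.82 on 1417395_at (−0.32, adjusted p = 0.357). Myc read 9.58 and 9.51 against 9.65 and 9.71 (0.14, SE 0.09, adjusted p = 0.458). With Sox2, Nanog was higher by 3.42 (SE 0.14, adjusted p = 0.00374), Nr0b1 by 2.33 and Zfp42 by 2.03. Of 23 measured pluripotency partners 6 were higher and 0 lower, and of 12393 genes 58 and 32. Among 34 family relatives Mycn was higher by 1.71 and Pou3f1 by 1.05. Of 37 Myc targets limma called 0, with 13 at an unadjusted p under 0.05, and the count over all genes at that p is not given here.

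Klf4 was the single member with a pair of probe sets, and the difference between them within an array was itself compared. It averaged 0.64 ± 0.30 (SD, n = 19) on the arrays of induced cultures and 0.10 ± 0.24 (SD, n = 5) on the MEF and iPS arrays, with 1417395_at the higher. The gap of 0.54 had p = 0.00127 in an exact two-sided permutation test over the 42504 ways to choose 5 of 24 arrays. The test treats the 24 arrays as exchangeable, although they fall into 15 groups and the 5 come from MEFs and iPS cells alone. Its p-value therefore does not measure spread between cultures, and the doxycycline status of the iPS cells is not stated. Against the iPS arrays alone, at 0.14, −0.21 and −0.07, the gap was 0.69 (p = 0.00195, exact permutation test). Against the MEF arrays alone, at 0.39 and 0.25, the gap was 0.32 (p = 0.119, exact permutation test over 210 arrangements).

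Within the induced arrays this Klf4 difference varied by day. It was largest in day 12 SSEA1+ (1.23), day 9 SSEA1+ (1.18) and day 12 Thy1- cells (1.06) and in day 6 Thy1+ cells of M2 (1.11), against 0.29 on M3 of that group. Without the latter M2 array the gap to MEF and iPS arrays was 0.52 (p = 0.00166, exact permutation test). Day 6 values otherwise lay between 0.23 and 0.45. The Gapdh 3′ minus 5′ difference was 0.82 to 0.96 on the day 9 SSEA1+, day 12 SSEA1+ and day 12 Thy1- arrays and lowest, at 0.58 to 0.66, on the iPS arrays. The same difference for Actb was 1.04 to 1.18 on the iPS arrays, 1.02 on the day 12 SSEA1+ array and 1.49 on the day 6 Thy1+ M2 array, against 0.68 to 0.99 on the others. The part of RNA quality in the Klf4 probe set difference was not tested.

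**Figure D5:**
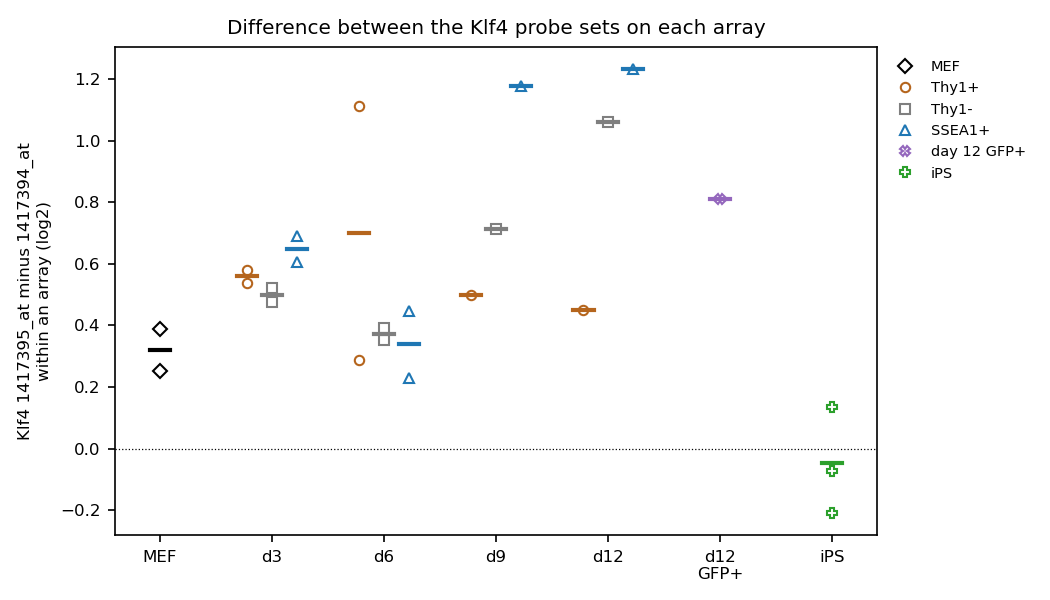
Klf4 1417395_at minus 1417394_at in RMA log2 signal within each of the 24 arrays (vertical axis) by day and fraction (horizontal axis), with short lines for group means and a dotted line at 0. The iPS arrays lie between −0.21 and 0.14, the MEF arrays at 0.25 and 0.39, and 5 induced arrays reach 0.81 or more.

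Across the 15 group means Pou5f1 and Sox2 had a Pearson correlation of 0.963 and the Klf4 probe sets one of 0.948. All members were read on the same arrays, so a technical effect of an array may be common to them. The Klf4 probe sets correlated weakly with Pou5f1 (0.205 and 0.279) and Sox2 (0.143 and 0.247). Myc correlated negatively with every other member, between −0.559 and −0.652. These values are descriptions over 15 points and were given no test.

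The genes whose group means were most like those of each member were taken from 3273 genes with an SD of at least 0.5 over the 15 groups. For Pou5f1 they were Dsg2 (0.991), a desmosomal cadherin gene, Tjp3 (0.986), Gng3 and Grb7 (0.985 each) and Stat4 (0.981). Those for Sox2 were Lin28a (0.994), an RNA-binding protein gene of pluripotent cells, Dppa5a (0.992), Slc27a2 (0.991), Cldn6 (0.984) and Otx2 (0.980). No gene was on both lists. The genes nearest to Klf4 1417394_at reached lower values, Smad7 (0.928), Pdk4 (0.901), Hmox1 (0.897), Mertk (0.871) and Ndrg2 (0.862), and for 1417395_at they were Mertk (0.939), Pdk4 (0.922), Pitpnc1 (0.915), Crlf2 (0.899) and Mitf (0.898). Nearest to Myc were Wdr45 (0.954), Syne2 (0.939), Adamts7 (0.924), Pou6f1 and B3galnt2 (0.921 each). Pou6f1 is itself a POU relative, and its rise at day 3 was given above.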

How the data were processed

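Total RNA of 28 samples was hybridised to 1-colour arrays without DNase digestion, per the labels' protocols. The authors deposited log2 signals per probe set from RMA (named in the submitters' processing notes); its version and which arrays were normalized together are not given in the sources used here. The deposited log2 values were used as they stand, apart from 90 and 64 control probe sets, which left 22626 per table. Of the probe sets, 18003 and 20380 carried 1 gene symbol, 287 and 691 several and 4336 and 1555 none. The tables were never compared with each other.

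Groups came from the sample titles and characteristics. limma 3.58.1 (R 4.3.3) fitted 15 group means to the 24 arrays (9 residual degrees of freedom), fraction plus day to the 18 sorted arrays (12), and 2 group means to the 4 EpCAM arrays (2), with Benjamini-Hochberg adjustment over all probe sets of a table. Groups of 1 array took the spread of the replicated groups. The fit was tested on simulated data. Sequences and tables were handled with pandas 2.3.3 and numpy 2.4.6, and plots drawn with matplotlib 3.10.9, under Python 3.11.15.

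All member probe sets were named. Of each gene list, at most 5 called genes with the largest differences could be named per comparison, and 5 genes per member for likeness of pattern. The members and the lists were chosen with earlier results of these data known, so list counts are descriptions. Alternatives were no minimum fold, a filter on the dimmest 25% of probe sets, probe sets with 1 symbol only, quantile normalization, median scaling, another variance prior, a replicate block, fewer arrays in the fit and leaving out each array. For the Klf4 probe set difference, leaving out the day 6 Thy1+ M2 array was chosen after seeing the data.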

Additional observations from a re-analysis of the deposited data

Results flagged for a closer look

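For 3 of the 5 probe sets the change from day 3 to day 12 differed between the SSEA1+ and Thy1+ fractions, by a test of the difference itself in limma's fit. The SSEA1+ change minus the Thy1+ change was 2.19 on the log2 scale for Pou5f1, 3.42 for Sox2 and −1.58 for Klf4 1417394_at. Day 12 had 1 array per fraction. The Sox2 value ranged from 2.52 to 4.33 when each of the 4 day 3 arrays was left out in turn, and remained called in those 4 fits. The single day 12 arrays could not be left out.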

How the results depend on the processing

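Of 1270 recomputed single differences, 1212 kept their direction and side of the threshold, 18 lost a call, 20 gained one and 20 changed sign, none of these a called difference; the largest main size among them was 0.69. With no minimum fold, the members called were 5 for iPS cells against MEFs, 2 for SSEA1+ day 6 against day 3, 4 for iPS against GFP+ cells, and 1 each for SSEA1+ and for Thy1+ against Thy1- cells over all days. Pou5f1 was then also called for Thy1+ day 12 against day 3 and for SSEA1+ against Thy1+ cells over all days. Klf4 1417395_at was also called for day 12 GFP+ against SSEA1+ cells. Quantile normalization left 1 for day 12 Thy1+ cells against MEFs. Leaving out each array of a group with replicates (the single arrays of days 9 and 12 were kept) gave 1 to 2 members there, 0 to 1 for SSEA1+ day 6 against day 3, 0 to 2 for day 9 against day 6, and 0 in each case for EpCAM. Some single calls of other comparisons also changed when an array was left out, several of them given above. The Klf4 probe set difference was 0.32 against MEFs alone, no longer past the threshold. The causes were not tested, beyond the fewer arrays of each such fit.

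Sign changes concerned differences that were not called, the largest of them −0.69 for Sox2 in SSEA1+ cells of day 6 against day 3. For day 3 Thy1+ cells against MEFs, leaving out an array gave −0.069 and −0.058 for Pou5f1 and 0.016 for Sox2 (lowest −0.087). For day 3 Thy1- cells it gave 0.018 and 0.087 for Pou5f1 (lowest −0.339) and 0.029 and 0.022 for Sox2 (lowest −0.040), which was 0.018 after median scaling. Sox2 ranged from −1.59 to 0.22 for SSEA1+ day 6 against day 3 and from −0.018 to 0.391 for iPS against GFP+ cells. Klf4 1417394_at in day 12 Thy1+ cells against MEFs was 0.043 after quantile normalization, 0.046 after median scaling, 0.033 with the replicate block and 0.0083 without MEF M3 (−0.0086 without M2). Myc was −0.014 for SSEA1+ against Thy1- cells without the day 12 SSEA1+ array, and at most 0.121. For Thy1- against Thy1+ cells it was −0.0024 after median scaling and −0.031, −0.010, −0.023 and −0.026 with single arrays left out, and at most 0.143.

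The labels do not say whether array numbers M2 and M3 pair the samples. Over 21 pairs of groups the correlation of deviations ran from −0.218 to 0.225. With so few arrays per group, such values cannot exclude that arrays of the same number share a source. With the number as a replicate block, 43 calls were made over the 19 comparisons, as without it, and 0 of 95 calls changed.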
